A study of Homo sapiens with 2 samples.

Results

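LINC03061 is a long noncoding RNA gene of chromosome 13 (RefSeq gene ID 127379752, bases 109265487 to 109271075 of hg38, a span of 5589 bases), and it carried 6 of the 1920 peaks of an eIF4A1 RNA immunoprecipitation. The peaks were taken as those whose summit, the base of highest read stacking, lies inside that span. The gene was chosen because earlier work on these data had shown its many peaks, so the number of peaks and their folds describe the choice and are given without a test. The RNA came from the cytoplasmic lysate of DU145, a human line of prostate cancer cells. After a pre-clearing step the lysate was split, and the paired tubes received rabbit anti-eIF4A1 or, as control, rabbit IgG. Each of the 2 groups was sequenced as 1 library, both from set number 2, so no value has a replicate error and no p-value was computed. No treatment or genetic change was named for either group, and the protocol read here describes no crosslinking.

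eIF4A1 is the DEAD-box helicase of the eIF4F complex, which binds the cap of an mRNA, and it unwinds RNA structure while the small ribosomal subunit is being loaded. Long noncoding RNAs are transcripts without a recognised long reading frame. Many stay in the nucleus, but some are exported, and cytoplasmic ones can meet ribosomes and the initiation machinery. An immunoprecipitation of a lysate recovers RNA held directly by the protein and RNA held through partners, and these cannot be told apart here. The deposited peaks carry no strand, so a transcript from either strand of the locus would give the same peaks.

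All 6 peaks are listed in the authors' deposited table under another gene, MYO16-AS1 (gene ID 100885782), a long noncoding RNA antisense to the unconventional myosin gene MYO16. The transcript used there starts at base 109201483, on the reverse strand, and in the authors' deposited table the summits lie 64.2 to 69.4 kb upstream of that start. In RefSeq, MYO16-AS1 lies 98.2 kb from LINC03061 and MYO16 57.5 kb from it, and both held 0 summits. The authors' deposited table classed the first 4 peaks as distal intergenic and the last 2 as lying in the exon of a single-exon transcript, ENST00000618966.1. No other RefSeq gene overlaps LINC03061, so the peaks have 1 candidate gene in that annotation. The name itself needs care: RefSeq also lists LINC03061 as a synonym of LINC00370, a neighbour 10.9 kb away that held 0 summits.

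The peaks formed a group with no other peak nearby, on a chromosome where peaks were sparse. LOC130494219, the next RefSeq gene, a long noncoding RNA 1128 bases beyond the end of LINC03061, held 0 summits. The nearest other peak lay 514 kb away in IRS2, which encodes an adaptor of the insulin receptor, and had a fold of 3.95 on 3 reads. On the other side the nearest peak lay 9600 kb away in CLYBL, which encodes a mitochondrial enzyme, with a fold of 2.99 on 2 reads. Most neighbouring peaks elsewhere on the chromosome were also more than 514 kb apart, so these distances do not set the gene apart. Chromosome 13 held 27 peaks, of which 22.2% were in LINC03061, a share that the choice of the gene bears on. LINC03061 was the only one of 17 RefSeq genes with a summit on this chromosome to hold 2 or more. The 21 other peaks of the chromosome had 2 to 6 reads at the summit, below the lowest peak of LINC03061. None of the 21 had a background worth at least 1 read of the control library, which 5 of the 6 peaks of LINC03061 had. All 113 listed peaks with such a background had 8 or more reads, so these read numbers are not compared on equal terms. The 6 summits of LINC03061 together held 55.8% of all reads at summits on the chromosome.

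**Figure D1:**
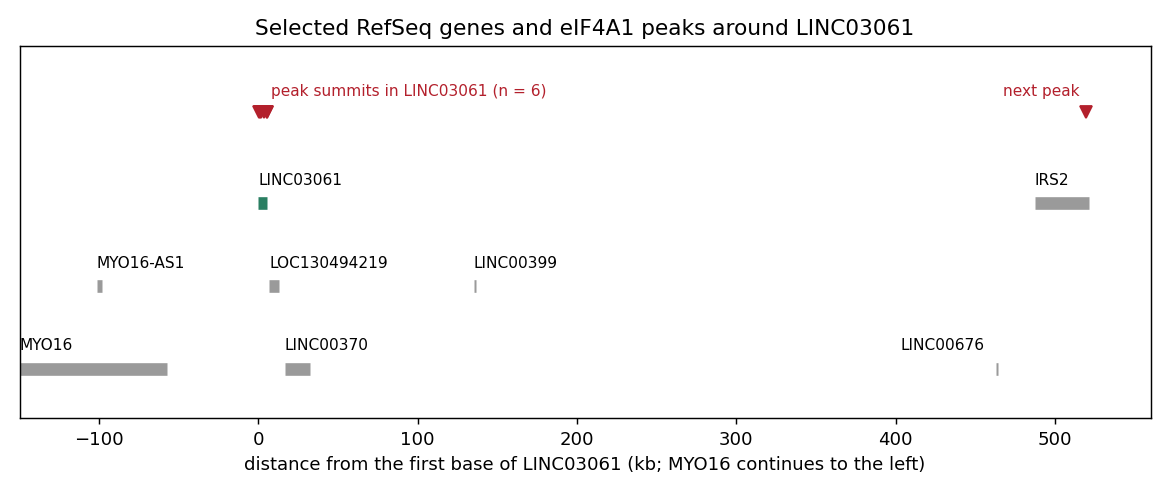
Selected RefSeq genes (bars, with LINC03061 in green, others in grey) and eIF4A1 peak summits (red triangles) by distance in kb from the first base of LINC03061. The 6 summits fall inside LINC03061, MYO16-AS1 and MYO16 hold none, and the next peak is in IRS2.

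Within the gene the peaks reached from one end of the span to the other. The first began 108 bases after the first base of the span, and the sixth ended 12 bases before the last. Counted from the first base, the summits stood at 213, 926, 1576, 3411, 5123 and 5428 bases. The first 3 summits lay within 28.2% of the span from its first base, the fourth at 61.0%, and the last pair at 91.7% and 97.1%. The longest stretches without a peak were 1598 bases before the fourth peak and 1481 bases after it. RefSeq's table as used here gives no strand for this gene, so neither end is called 5' or 3'. The peaks covered 1260 bases, 22.5% of the span.

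The deposited fold is the ratio of eIF4A1 reads to the control background at the summit, with 1 added to each. The first peak (bases 109265595 to 109265842) had a fold of 7.98 with 14 eIF4A1 reads at its summit, and the second (109266320 to 109266566) a fold of 6.38 with 11 reads. The third (109266934 to 109267154) had the highest fold of the gene, 11.2 with 13 reads. It ranked 3rd of all 1920 peaks by fold. The fourth peak (109268753 to 109268936) was the weakest by reads, with 8 reads and a fold of 4.79. The fifth (109270418 to 109270611) had the lowest fold, 4.35, although it held 11 reads. The sixth (109270898 to 109271063) held the most reads, 15, with a fold of 8.51, and ranked 12th by fold. Folds were thus highest at the third and the sixth and lowest at the fourth and the fifth, but each number rests on few reads. The exact Poisson 95% intervals ran from 3.45 to 15.8 reads at the fourth peak and from 8.40 to 24.7 at the sixth. They cover the counting error of the eIF4A1 reads only, not that of the control. The intervals overlapped for every pair of the 6 peaks. Overlap of intervals is not a test of a difference, and no order among the peaks is claimed.

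**Figure D2:**
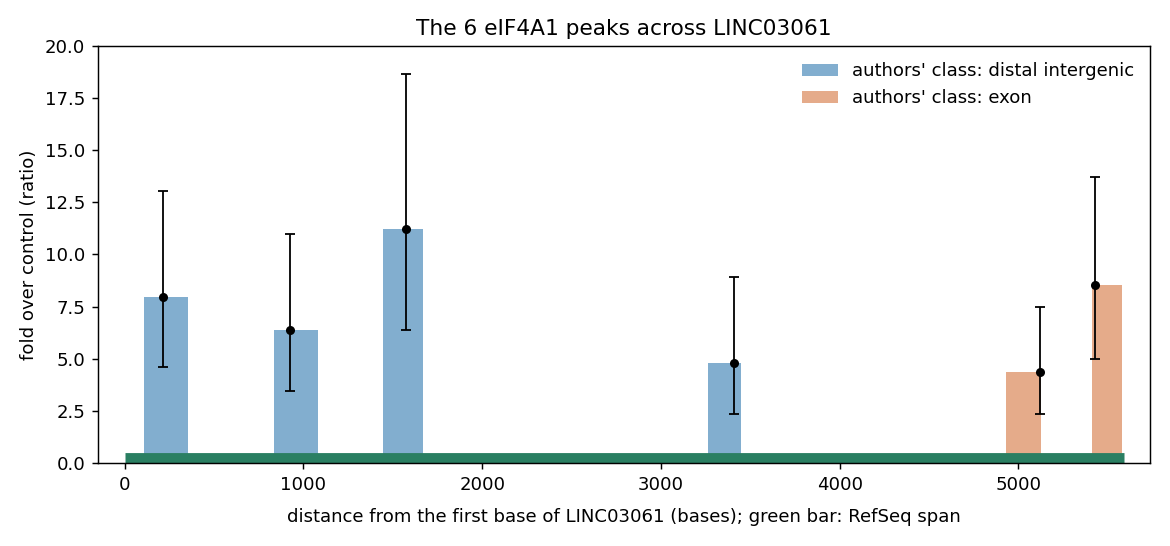
Fold over control (ratio) of each peak against the distance in bases from the first base of LINC03061. Bar widths are peak widths and black points sit at the summits. Whiskers are the folds at the bounds of the exact Poisson 95% interval of the reads, with the background held fixed. The third peak is highest at 11.2, the fourth and the fifth are lowest at 4.79 and 4.35, and the whiskers overlap.

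A fold of at least 5 was reached by 4 of the 6 peaks, against 22.5% of all peaks. A −log10 q of 5 or more was reached by 3, against 26.3% of all peaks. Since the gene was chosen with its peaks and their folds known, nothing is read from these counts. The −log10 q was 12.1 at the third peak, 8.02 at the sixth, 7.04 at the first and 4.22 at the second. It was 1.90 at the fifth and 1.87 at the fourth, where the lowest value kept in the whole list was 1.30. The fourth and the fifth peak thus stood near the end of the list by q, at ranks 1629 and 1618, while the 11 reads of the fifth placed it 35th by reads. The median fold over the 6 peaks was 7.18, beside 3.99 over all peaks, and the median of reads was 12, beside 3.

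The control library also held RNA at this gene. In the recovered values the background moved in steps, and 1 control read at the summit was worth 0.880 on the scale of the eIF4A1 library. At 4 peaks the background equalled the value of 1 such read, or of 50 reads in the surrounding 1 kb, and at the fifth it equalled that of 2. At the third peak it was 0.246, too low for any control read in the 20-base window at the summit, a count of 0 that allows up to 3. That value equals 14 control reads in the surrounding 1 kb or 140 in 10 kb, whichever window set it. A background of at least 1 control read was thus found at 5 of the 6 peaks (83.3%), against 5.89% of all peaks. Among the 142 peaks outside LINC03061 with 8 or more reads the share was 76.1%. A background of this size was thus common at peaks of like read support. All 113 listed peaks with such a background had 8 or more reads. A peak needs more reads over a higher background to be kept in the list. The 5.89% is therefore not a like comparison, and nothing is read from it. Summed over the summits, the gene held 72 eIF4A1 reads (interval 56.3 to 90.7) against at most 6 control reads. The summits were placed where the eIF4A1 reads were highest, so the 2 sums were not sampled alike.

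The low background of the third peak entered its rank. With every background set to at least 1 control read its fold was 7.45, and the sixth peak then led at 8.51. The control library, IgG or the input that was set aside, is not named.

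**Figure D3:**
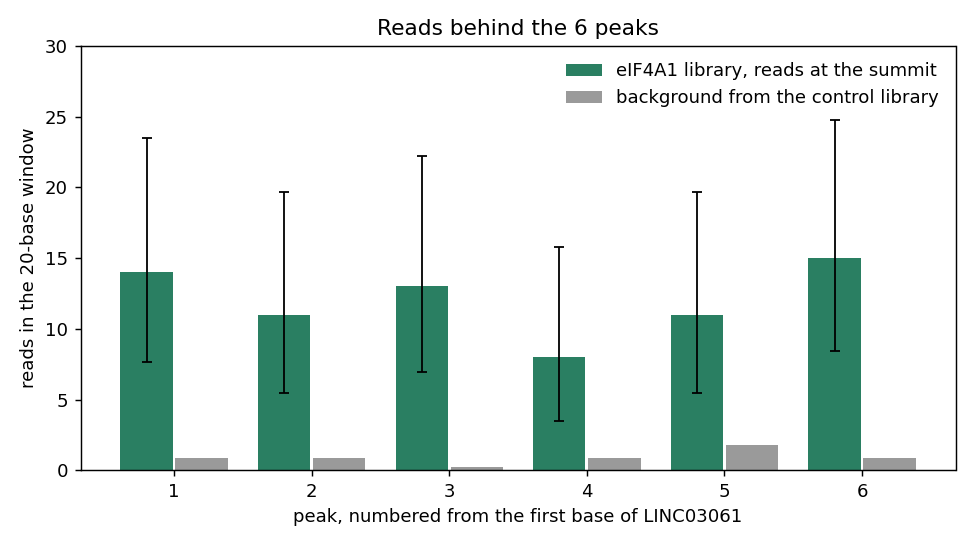
eIF4A1 reads at the summit (green, with exact Poisson 95% intervals) and control background on the same scale (grey) for the 6 peaks, numbered from the first base of LINC03061. Reads run from 8 to 15 and the background from 0.246 at the third peak to 1.76 at the fifth.

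The peaks of LINC03061 were wide. They spanned 248, 247, 221, 184, 194 and 166 bases in order along the gene, where the median over all 1920 peaks was 27 bases and 775 peaks had the smallest width of 20. Of the 6, 5 were among the 50 widest peaks. The summit was not always central: in the fifth peak it was base 193 of 194 and in the sixth base 18 of 166. Width did not simply follow the reads at the summit. Outside LINC03061, the 142 peaks with 8 or more reads had a median width of 63 bases, against 207.5 in LINC03061. Those 142 peaks had the same median background, 0.880, and a median fold of 5.32. Limits set at the lowest member, at least 166 bases and at least 8 reads, were met by 19 peaks in all, and besides the 6 of LINC03061 they included 3 in FASN, which encodes fatty acid synthase, and 2 in CIC, which encodes the transcriptional repressor capicua. These limits were set after the values were seen, so the count is a description.

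**Figure D4:**
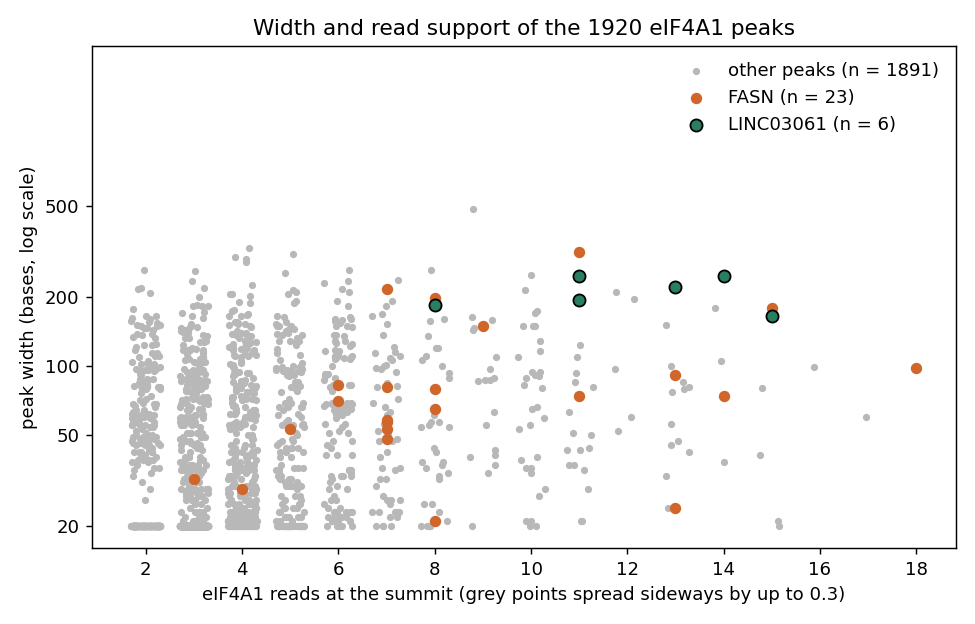
Width in bases (log scale) against eIF4A1 reads at the summit for all 1920 peaks; LINC03061 is in green, FASN in orange and the other peaks in grey. The 6 green points lie between 166 and 248 bases and between 8 and 15 reads, above most peaks of like read number.

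Among the 4 members that the authors' deposited table calls distal intergenic, the reads at the summit were 14, 11, 13 and 8. That class held 75 peaks, with a median of 2 reads and a median fold of 2.99. The third, first and second peaks of LINC03061 had its 3 highest folds, and the highest fold among the class's other peaks was 6.23. Only 1 of the other peaks of the class had 8 or more reads, with 10. The 2 members in the exon class had 11 and 15 reads, and that class had a median of 3 reads over its 384 peaks.

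Set beside other long noncoding RNA genes, LINC03061 held the most peaks. Of 18303 such genes in RefSeq, 1.03% held a summit and 0.082%, or 15 genes, held 2 or more. The next by number of peaks, LOC100131635, had 3 peaks with 3 to 6 reads, and all 3 summits also lie in BCL6, which encodes a transcriptional repressor. LOC105372261, NDST2-ZSWIM8-AS1, ADAMTSL4-AS2 and LINC02210 had 2 peaks each, with 3 to 6 reads, and every summit of these also lies in a protein-coding gene. CA5BP1-CA5B and LOC101929774 each had 1 of their 2 summits in a protein-coding gene, CNN3-DT had 0 of 2 and PSMB8-AS1 had 2 of 2. In all, 5 of the 15 genes had no summit in a protein-coding gene, and outside LINC03061 those genes had 2 to 4 reads at a summit. Of these 5 genes, 2 overlap each other and hold the same 2 summits. Over the 88 other peaks in a long noncoding RNA gene and in no protein-coding gene, the median was 3 reads and 20 bases. The highest count among them was 14 reads. A background of at least 1 control read was found at 3 of the 88, and outside LINC03061 at no summit of the 15 genes.

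A list of 35 well-known noncoding RNAs gave 4 genes with a peak (11.4%), each with a single one. The share was 1.03% over all long noncoding RNA genes in RefSeq. The list is short and was not drawn at random, so nothing is read from the difference. FTX, a regulator of X inactivation, had a fold of 4.68 on 5 reads. MIR22HG, the host gene of miR-22, had 3.97 on 3 reads and LINC-PINT, a p53-induced transcript, had 3.93 on 3 reads. EPB41L4A-AS1, a snoRNA host gene, had 2.95 on 2 reads, and its summit also lies in a protein-coding gene. None of these 4 reached the 8 reads of the weakest peak of LINC03061. Their backgrounds, at most 0.281, were below the value of 1 control read, from which on all listed peaks had 8 or more reads. Neither MALAT1 nor NEAT1, both abundant nuclear transcripts, held a summit, and a peak list cannot show whether a transcript was present in the lysate. For the same reason the label of the cell line was not checked. Of 8 marker genes examined for it, such as EPCAM and KRT8, 0 held a summit, where 2.82% of all RefSeq genes did.

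Over all RefSeq genes, 2.82% held a summit and 0.0218%, which are 13 genes, held 4 or more. The 5 of these closest to LINC03061 by median reads at the summit were CIC (median of 10 reads over 7 peaks), BCAM (9 over 7), FASN (8 over 23), CLIP2 (5 over 5) and JUP (5 over 4). BCAM encodes a laminin-binding surface glycoprotein, CLIP2 a microtubule-binding linker protein and JUP the junction protein plakoglobin. LINC03061, with a median of 12, was the only long noncoding RNA gene of the 13. Its reads ran from 8 to 15 over the 6 peaks, where those of CIC ran from 4 to 12, of BCAM from 3 to 14 and of FASN from 3 to 18.

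Peaks per kb of span were 1.07 in LINC03061, 1.16 in FASN, 0.566 in BCAM and 0.257 in CIC. The share of the span under peaks was 22.5% in LINC03061, 10.8% in FASN, 5.61% in BCAM and 2.77% in CIC. Spans include introns, so these densities compare genes of different exon content and do not rank mature transcripts. The background was worth at least 1 control read at the summit, whichever window set it, in 5 of 6 peaks of LINC03061, 4 of 7 of CIC, 3 of 7 of BCAM and 7 of 23 of FASN. Peaks of 1 gene in 1 library are not replicates, so these shares are a description and the genes are not compared by them. The part of the background in the peak counts was not tested.

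**Figure D5:**
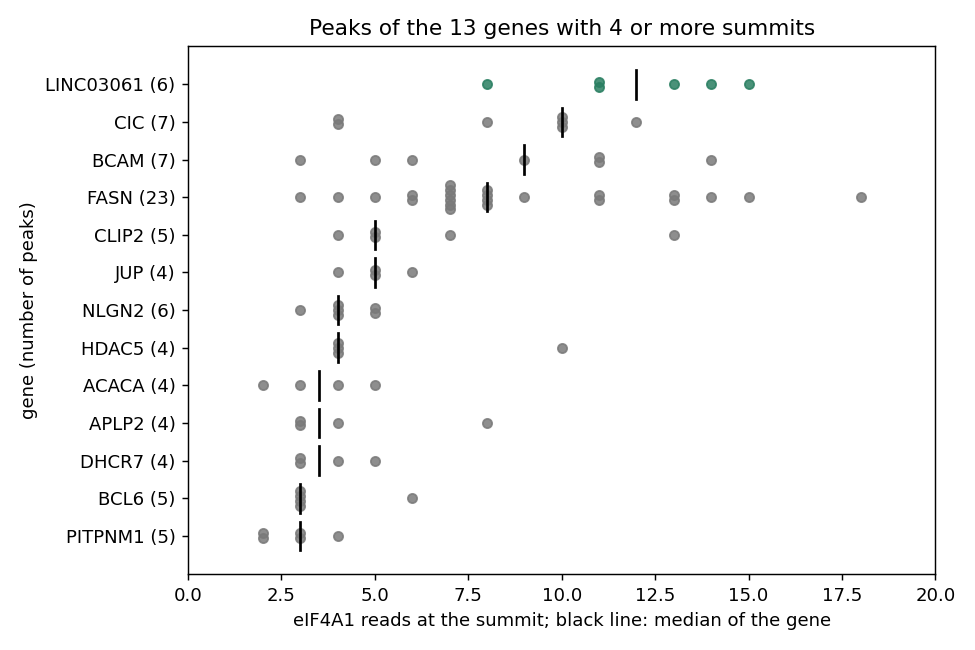
eIF4A1 reads at the summit of each peak (points) in the 13 RefSeq genes with 4 or more summits, ordered by the median (black line), with the number of peaks in brackets. The 6 peaks of LINC03061, in green, lie between 8 and 15 reads, and the gene's median of 12 is the highest of the 13.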

How the data were processed

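MACS2, ChIPseeker, BWA and 4 other tools are named, without versions or roles, per the submitters' processing notes, which give hg38 among their builds. The peak track has the column order of MACS2 output and was filed under the IgG sample, but every peak name in it carries the eIF4A1 library's name. It was therefore taken to hold eIF4A1 peaks over a control. It gives, as deposited, a score, a linear fold ratio, and −log10 p and −log10 q values. The authors' score was not analysed. Summits and q values were the same in the authors' annotated table for all 6 peaks. Coordinates are 1-based, and spans come from RefSeq GRCh38.p14.

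The depth of each library is unknown. Reads were recovered from the fold, taken as (reads + 1)/(background + 1), and the −log10 p, taken as the Poisson probability of more reads. Recomputed and deposited −log10 p differed by at most 0.00076. For the 6 peaks the next whole number missed the deposited value by at least 0.109. On 500 peaks simulated with the same formula 100% of read numbers were recovered. That checks the inversion of the formula and not whether the deposited values follow it. In 22 of the 1920 peaks a second whole number came within 0.01 of the deposited −log10 p, and the nearest was used. The backgrounds were whole multiples (tolerance 0.05) of 1 control read in a 20-base, 1 kb or 10 kb window, or the lowest value, in 99.4% of peaks. A wide window with enough reads gives the same value as 1 read at the summit, so control reads are upper limits. This rests on the caller's formula. Intervals cover the counting error of the eIF4A1 reads only, and those of folds hold the background fixed. The handling of duplicates and of reads mapping to several places is unknown.

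The gene and lists were chosen with earlier results of these data known. Genes were named by a rule: the neighbours, the 5 genes with 4 or more summits closest in median reads, up to 10 long noncoding RNA genes with 2 or more summits, and listed noncoding RNAs with a peak. Other genes named (MALAT1, NEAT1, EPCAM, KRT8, CLYBL and those at the summits) were chosen after their values were seen. Python 3.11.15, scipy 1.17.1 and pandas 2.3.3 were used. No sequence was used here.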

Additional observations from a re-analysis of the deposited data

How the results depend on the processing

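Of 18 alternatives computed for LINC03061, 11 stayed within set limits of the value reported and 7 moved. The limits were a count within 1.5 times, or a value within its 95% counting interval. These limits are wide. A best fold of 18.1 beside the deposited 11.2 stayed within them, so staying within them does not show that a value is stable. With a −log10 q of at least 5, 3 peaks with 42 summed reads were left, at 0.537 peaks per kb. Joining peaks within 500 bases also gave 3 regions, at 0.537 per kb. Leaving out the distal intergenic class left 2 peaks and 26 reads. Fewer peaks enter these settings by construction. The count stayed at 6 with at least 5 reads, by either overlap rule and when joined within 100 bases. These outcomes were fixed in advance, so they add no support to the count. The lowest peak had 8 reads, every interval lay inside the span, and the smallest gap between intervals was 286 bases. With every background raised to 1 control read the count was also 6, but 5 of the 6 peaks already had such a background. Only the third peak could change, so this is not read as support. The count was 4 at a fold of at least 5. The best fold was 18.1 with a pseudocount of 0.5 and 8.51 with that raised background. Read support limits every value, since 1 summit holds at most 15 reads. No replicate could be left out. No paired analysis was possible because the groups hold 1 library each.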
